A study of Mus musculus with 9 samples.

Results

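The miR-130 and miR-301 family was described in brown, subcutaneous and visceral fat of obese mice. A miRNA is a short RNA that guides a silencing complex to messenger RNAs, mainly by pairing of its bases 2 to 8, the seed, with a site in the 3′ untranslated region (UTR). The miR-130 and miR-301 miRNAs share one seed, and miR-130 is known to repress Pparg, the gene of the nuclear receptor that drives adipocyte differentiation and lipid storage. The family is also known to take part in adipogenesis through this receptor. Members were all miRNAs in the table whose name begins with miR-130a, miR-130b, miR-301a or miR-301b, which gave 8 of 1251 miRNAs, the 2 arms of each precursor. The table holds miRNAs only. The level of Pparg and its repression by these miRNAs were not analysed here, and the words "PPARG-targeting" rest on background knowledge and on the sequence match given further on.

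Small RNA was sequenced from 9 libraries, 3 each of interscapular BAT, inguinal SAT and epididymal VAT. All came from male C57BL/6J mice without genetic change that started at 5 to 6 weeks of age on a high fat diet (HFD) with 45% of its energy from fat, 20% from protein and 35% from carbohydrate, ate it for 11 weeks, fasted for 4 hours and were 16 to 17 weeks old when the depots were taken. Every library is from an HFD fed mouse, so no effect of diet could be compared. Libraries are named by the numbers in their titles (BAT 12, 15 and 20, SAT 14, 19 and 20, VAT 14, 17 and 20), and no source used here says that a shared number is a shared mouse. The tissue was whole fat, in which a lower share of a cell type and a lower level per cell cannot be told apart.

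Mature sequences of 7 of the 8 members were found in RefSeq (GRCm38.p6), and miR-301b-3p had no entry. The 3 members that carry the family seed and had a value above the lowest in any library are shown because the results turn on them, with the seed in capitals, 5′ to 3′.
miR-130a-3p: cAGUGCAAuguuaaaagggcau
miR-130b-3p: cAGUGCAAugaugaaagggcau
miR-301a-3p: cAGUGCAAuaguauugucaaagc
The first 9 bases were the same in all 3. MiR-130a-3p and miR-130b-3p were identical at 20 of 22 bases and differed by U11A and A13G, counted from 1 at the 5′ end with the base of miR-130a-3p first. The authors shared reads that mapped to several places in proportion, so the value of one of these 2 miRNAs can hold reads of the other, and how much was not tested. The seed AGUGCAA occurred in 7 mature miRNAs, 0.417% of the 1679 names in the RefSeq table. The other 4 were miR-130c, miR-721, miR-6341 and miR-6389, and each of them had the lowest value in all 9 libraries. The opposite arm of the miR-130b precursor, miR-130b-5p, has another seed and is shown because it was the remaining member above the lowest value.
miR-130b-5p: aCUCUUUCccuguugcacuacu

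The precursors lie on 3 chromosomes of GRCm38. MiR-130a-3p is encoded at chr2:84741116-84741137 on the minus strand, in Mir130a, which overlaps no other gene in GENCODE M21. MiR-301a-3p is encoded at chr11:87113054-87113076 on the plus strand, in Mir301, within an intron of Ska2, a gene of the spindle and kinetochore associated complex. MiR-130b-3p is encoded at chr16:17124071-17124092 on the minus strand, in Mir130b, within an intron of 2610318N02Rik. The same gene also holds Mir301b in an intron, 257 bases away on the same strand. MiR-301a-3p thus comes from another locus than its namesakes miR-301b-5p and miR-301b-3p, and of the chromosome 16 pair only Mir130b had members above the lowest value.

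The 3′UTR of Pparg (transcript Pparg-201, 204 bases) was searched on the messenger strand for the complement of each seed. The family's motif TTGCACT occurred once and began at base 42 after the stop codon. ACTGTGA, the motif of miR-27a-3p and miR-27b-3p, also occurred once and began at base 88. Each is shown in capitals within a window as long as its miRNA, at chr6:115490223-115490244 for the family and chr6:115490270-115490290 for miR-27, both on the plus strand.
Pparg site for the family seed: gttccttctattgaTTGCACTa
Pparg site for the miR-27 seed: acctaagaaatttACTGTGAa
TTGCACT was present in 1.61% of the 18024 genes with a 3′UTR at least as long, in the same length after the stop codon, and ACTGTGA in 2.95%. A match is a description of the letters and was not tested as a site.

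The values are the deposited log2 normalized values, in which 3.32, the log2 of 10, is the lowest and stands for miRNAs with little or no signal. The highest was 18.67 in every library, and the table gives no read counts. The paper gives only an approximate number of mapped reads per sample. The depth of each library is therefore unknown, and error is given as the SD over the 3 libraries of each depot. Of the 1251 miRNAs, 839 (67.1%) had the lowest value throughout, against 4 of the 8 members (50%). The lower end differed between depots, which bears on every low member. BAT libraries had 255 to 273 miRNAs above the lowest value, SAT 240 to 285 and VAT 323 to 349. The smallest value above the lowest was 4.25 to 4.91 in BAT, 4.13 to 5.20 in SAT and 3.36 to 3.62 in VAT. A low miRNA could therefore show a value in VAT that BAT and SAT libraries could not show, and results near this range were also computed with all values below 5.20 set to 5.20, called the common detection limit here and chosen after the values were seen.

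**Figure D1:**
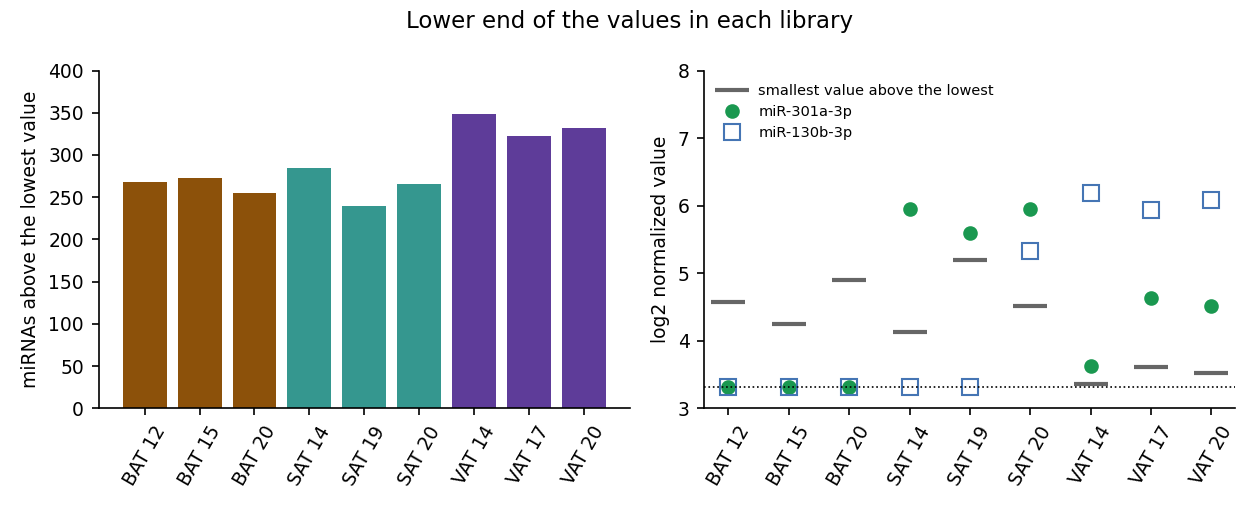
MiRNAs above the lowest value in each library (left, number) and the log2 normalized values of miR-301a-3p (circles) and miR-130b-3p (squares) beside the smallest value that each library shows above the lowest (right, grey bars, lowest value dotted). The 3 VAT libraries show values down to 3.36 to 3.62, and their miR-301a-3p values lie below the smallest value of SAT 19, 5.20.

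MiR-130a-3p was the predominant member and had higher expression in both WATs than in BAT. Its log2 level was 9.05, 8.997 and 8.34 in BAT 12, 15 and 20, 11.11, 11.75 and 11.38 in SAT 14, 19 and 20, and 11.81, 11.34 and 11.65 in VAT 14, 17 and 20. All 6 WAT libraries were above all 3 BAT libraries, whereas SAT and VAT overlapped. The means were 8.80 ± 0.40 in BAT, 11.41 ± 0.32 in SAT and 11.60 ± 0.24 in VAT (SD, n = 3 libraries each). From the top of each library it ranked 114 to 135 in BAT, 57 to 69 in SAT and 56 to 65 in VAT.

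Each pair of depots was tested on its 6 libraries with limma across the 343 miRNAs that exceeded the lowest value in 3 or more of the 9 libraries, with Benjamini-Hochberg adjustment over all 343. In VAT/BAT, miR-130a-3p was higher by 2.80 on the log2 scale (SE 0.29, 6.98-fold, limma adjusted p = 0.000433). In SAT/BAT it was higher by 2.62 (SE 0.28, 6.13-fold, limma adjusted p = 0.00259). Both differences were larger than the spread between libraries, and miR-130a-3p kept its call in all 18 alternatives of each comparison. The VAT/SAT difference was 0.19 (SE 0.22, limma adjusted p = 0.596) with a 95% interval of -0.38 to 0.75, so a difference between both WATs was not detectable here. With SAT and VAT together as WAT in a fit of all 9 libraries, miR-130a-3p was 2.71 higher in WAT than in BAT (SE 0.25, 6.54-fold, limma adjusted p = 3.81e-05).

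**Figure D2:**
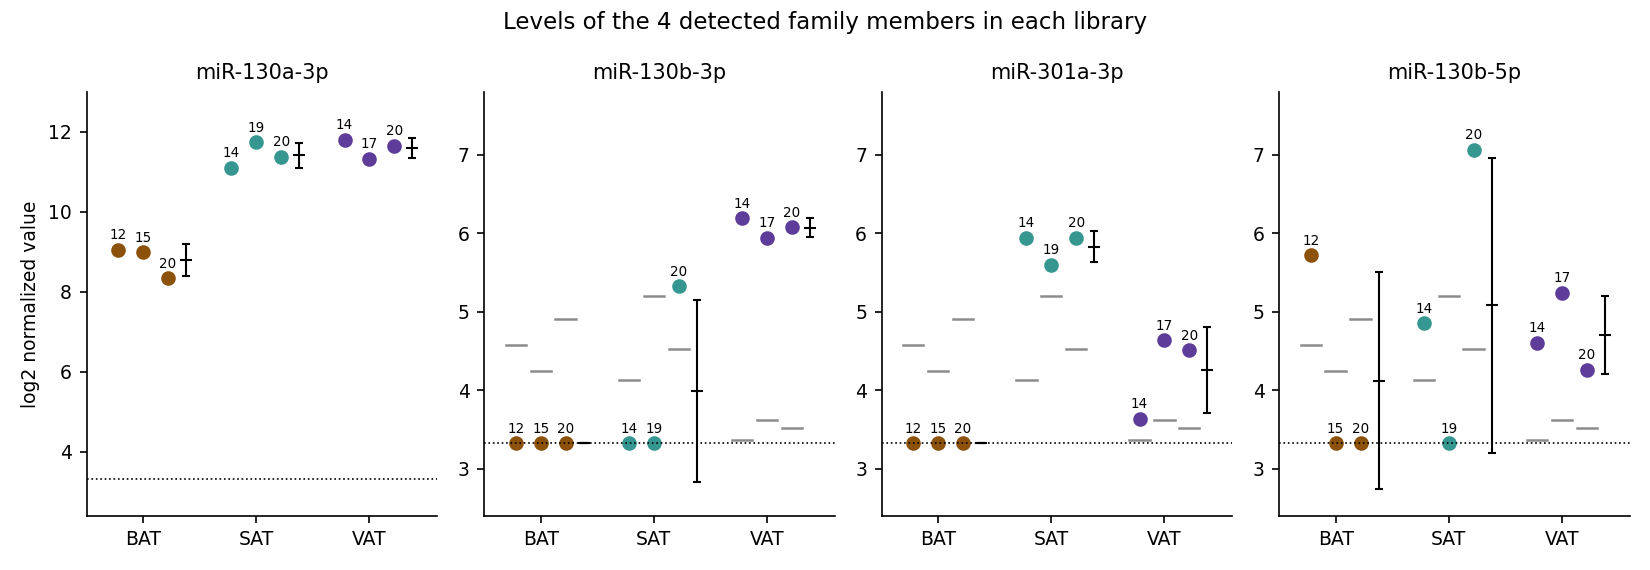
Log2 normalized values of the 4 members above the lowest value, by library (points, numbers from the sample titles), with the mean and SD of each depot (bars), the lowest value of the table (dotted) and the smallest value that each library shows above the lowest (grey dashes). MiR-130a-3p is higher in the 6 WAT libraries (11.11 to 11.81) than in BAT (8.34 to 9.05), while miR-130b-3p is highest in VAT (5.94 to 6.19) and miR-301a-3p in SAT (5.60 to 5.94).

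The size of these differences was not rare among miRNAs. By absolute log2 difference miR-130a-3p was number 83 of 343 in VAT/BAT, number 77 in SAT/BAT and number 274 in VAT/SAT. The 3 miRNAs outside the family with the pattern most like it over the 9 libraries, by the root mean square difference of log2 values after each miRNA's own mean was subtracted, were miR-322-5p (0.338), miR-26b-5p (0.343) and miR-143-3p (0.356), against a median of 1.35 over the others of the 339 compared. MiR-322-5p, of the miR-15 and miR-16 seed family, averaged 8.56 ± 0.54 in BAT, 10.75 ± 0.18 in SAT and 10.81 ± 0.25 in VAT (SD, n = 3 each). MiR-143-3p, which is known to promote adipocyte differentiation, lay far higher, at 14.04 ± 0.30 in BAT, 16.14 ± 0.21 in SAT and 16.46 ± 0.07 in VAT (SD, n = 3 each).

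MiR-130b-3p was detected in every VAT library and in no BAT library. Its log2 level was 6.19, 5.94 and 6.08 in VAT 14, 17 and 20, and 3.32, 3.32 and 5.33 in SAT 14, 19 and 20, while BAT 12, 15 and 20 were all at 3.32. Each VAT library was above each SAT library, and a single SAT library, SAT 20, stood above the lowest value. VAT averaged 6.07 ± 0.12 and SAT 3.99 ± 1.16 (SD, n = 3 each). In VAT/BAT the difference from the lowest value was 2.75 (SE 0.20, limma adjusted p = 0.000207). With the common detection limit, which credits BAT with more than it shows, 0.87 of it was left (limma adjusted p = 0.00424), and the call held in all 17 alternatives. MiR-130b-3p passed the filter only through VAT and SAT 20, and BAT had no spread, so its p-values against BAT are a description. The SAT/BAT difference was 0.67 (SE 0.62, 95% interval -0.94 to 2.27, limma adjusted p = 0.42).

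Between the WATs, miR-130b-3p was 2.08 higher in VAT on the log2 scale (SE 0.61, 95% interval 0.51 to 3.65), which did not pass the threshold (limma adjusted p = 0.0863) although the groups did not overlap. Among all tested miRNAs this was number 16 of 343 by size. The threshold was passed in 3 of 18 alternatives. These were the fit without SAT 20 (difference 2.75, limma adjusted p = 0.00702), the fit of all 9 libraries (limma adjusted p = 0.0431) and the common detection limit (difference 0.83, limma adjusted p = 0.0131). In WAT/BAT it was 1.71 higher (SE 0.44, limma adjusted p = 0.00853), with SAT 14 and SAT 19 at the BAT value, so the groups overlapped.

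MiR-301a-3p had the opposite order in the WATs. Its log2 level was 5.94, 5.60 and 5.94 in SAT 14, 19 and 20, and 3.63, 4.64 and 4.51 in VAT 14, 17 and 20, with all 3 BAT libraries at 3.32. Every SAT library was above every VAT library, and every VAT library was above BAT. The means were 5.83 ± 0.20 in SAT and 4.26 ± 0.55 in VAT (SD, n = 3 each). In VAT/SAT it was lower in VAT by 1.57 on the log2 scale (SE 0.31, 95% interval -2.37 to -0.77, limma adjusted p = 0.0326). This call held in 7 of 18 alternatives, with adjusted p from 0.0229 to 0.237, and was lost without SAT 14 (limma adjusted p = 0.086), without SAT 19 (0.0707), without SAT 20 (0.0912) or without VAT 20 (0.0871), with differences of -1.51 to -1.69. With the common detection limit the difference fell to -0.63 (limma adjusted p = 0.0248).

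Against BAT, miR-301a-3p was 2.51 above the lowest value in SAT (SE 0.13, limma adjusted p = 0.000226), and the call held in all 17 alternatives, down to 0.63 with the common detection limit (limma adjusted p = 0.0312). In VAT it was 0.94 above it (SE 0.32, limma adjusted p = 0.0397). That second call was lost in 13 of 17 alternatives, and with the common detection limit no difference was left (0), since all 3 VAT values lie below that limit. WAT/BAT gave 1.72 (SE 0.25, limma adjusted p = 0.000508), and 0.31 with the common detection limit (limma adjusted p = 0.116). MiR-301a-3p passed the filter only through SAT and VAT, with no spread in BAT, so its p-values against BAT are also a description. Several miRNAs share one value at this level. The value of 5.60 in SAT 19 was shared by 18 miRNAs, that of 5.94 in SAT 14 and in SAT 20 by 7, and that of 3.63 in VAT 14 by 11.

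The 2 low members with the family seed therefore ranked in opposite order in SAT and VAT. Within a library, miR-130b-3p minus miR-301a-3p was 2.55, 1.30 and 1.57 in VAT 14, 17 and 20 and -2.62, -2.28 and -0.62 in SAT 14, 19 and 20 on the log2 scale. All VAT libraries were above 0 and all SAT libraries below it. VAT averaged 1.81 ± 0.66 and SAT -1.84 ± 1.07 (SD, n = 3 each), a difference of 3.65. The pair was chosen for this opposite order, so the values are a description. An exact permutation test gave p = 0.1, the smallest that 3 against 3 libraries can give, and is no support for the order. In SAT 14 and SAT 19 miR-130b-3p was at the lowest value, where the difference is set by miR-301a-3p alone.

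**Figure D3:**
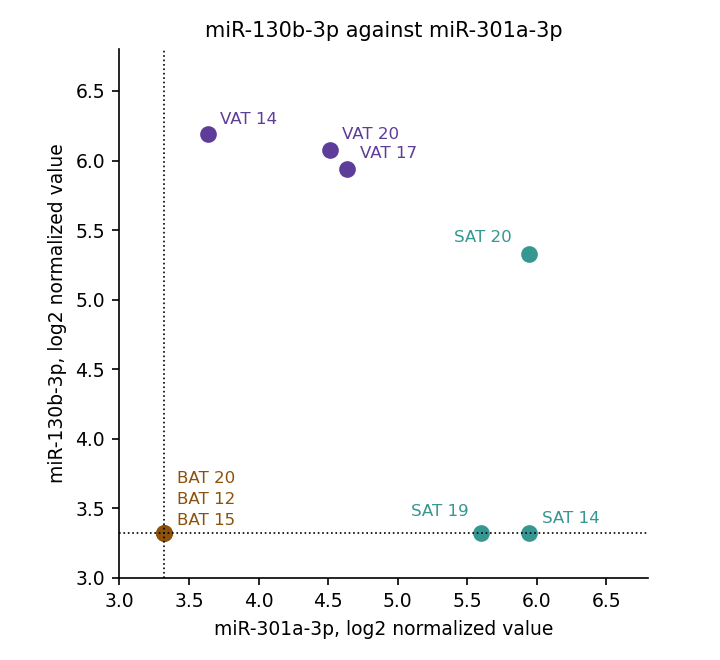
Log2 normalized value of miR-130b-3p against that of miR-301a-3p in each of the 9 libraries, with the lowest value dotted on both axes. The VAT libraries lie at the upper left, SAT 14 and SAT 19 on the dotted line at the lower right, SAT 20 at 5.94 and 5.33, and the 3 BAT libraries together at 3.32 on both axes.

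MiR-130b-5p did not pass the test in any comparison. Its log2 level was 5.72, 3.32 and 3.32 in BAT 12, 15 and 20, 4.85, 3.32 and 7.07 in SAT 14, 19 and 20, and 4.605, 5.24 and 4.26 in VAT 14, 17 and 20. All 3 depots overlapped, and the level in SAT 20 was the highest. In the same library miR-130b-3p, from the other arm of the precursor, also had its only SAT value above the lowest. The leukocyte miRNAs miR-150-5p (16.72, beside 13.56 and 13.84 in SAT 14 and 19) and miR-142-5p (11.88, beside 7.87 and 7.85) were highest in SAT 20 too. So were miR-142-3p and miR-146a-5p, whereas miR-223-3p was lowest there and miR-511-3p and miR-155-5p were at the lowest value throughout SAT. A part of leukocytes in the SAT 20 values was not tested. The differences of miR-130b-5p were 0.58 in VAT/BAT (95% interval -1.14 to 2.30, limma adjusted p = 0.49), 0.96 in SAT/BAT (-2.27 to 4.18, limma adjusted p = 0.567) and -0.38 in VAT/SAT (-2.99 to 2.23, limma adjusted p = 0.839), and each of these signs turned in at least 1 alternative. MiR-130a-5p, miR-301a-5p, miR-301b-3p and miR-301b-5p were at the lowest value in all 9 libraries.

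With values taken out of log2 and the lowest value subtracted, miR-130a-3p made up 92.4% to 100% of the summed family level in BAT, 92.8% to 98.9% in SAT and 96.5% to 97.8% in VAT. MiR-130b-3p made up 1.72% to 1.93% in VAT and at most 1.05% in SAT. MiR-301a-3p made up 1.11% to 2.28% in SAT and 0.0663% to 0.558% in VAT. The summed level of the family was thus mainly that of miR-130a-3p in every library.

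Across the comparisons, 3 of the 4 tested members were higher in VAT than in BAT at an adjusted p under 0.05 (limma), where 66.2% of the 343 tested miRNAs were called, 39.4% as higher and 26.8% as lower in VAT. In SAT/BAT 2 members were higher, where 40.5% of miRNAs were called, 22.4% as higher and 18.1% as lower in SAT. In VAT/SAT 1 member, miR-301a-3p, was lower, where 16.0% were called, 8.45% as higher and 7.58% as lower in VAT. In WAT/BAT 3 members were higher, where 64.1% were called, 37.3% as higher and 26.8% as lower in WAT. MiR-130b-3p and miR-301a-3p passed the filter through the depots where they are high, so these counts are a description and no support for a pattern of the family.

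The median log2 difference of the 4 tested members was 1.84 in VAT/BAT, 1.73 in SAT/BAT and -0.10 in VAT/SAT, beside 0.40, 0.26 and 0.10 over all 343 tested miRNAs. MiR-130b-3p and miR-301a-3p entered these medians only through SAT and VAT, with BAT at the lowest value, and 4 of the 8 members were left out. The medians against BAT are thus partly set by the filter and give no shift of the family. The comparisons with BAT share the BAT libraries and are not independent of each other. In limma's F test over the 3 depots, adjusted over the 343 miRNAs, the adjusted p was 0.000128 for miR-130a-3p, 0.000405 for miR-301a-3p, 0.00394 for miR-130b-3p and 0.666 for miR-130b-5p. The limit set by the filter holds here too for miR-301a-3p and miR-130b-3p.

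**Figure D4:**
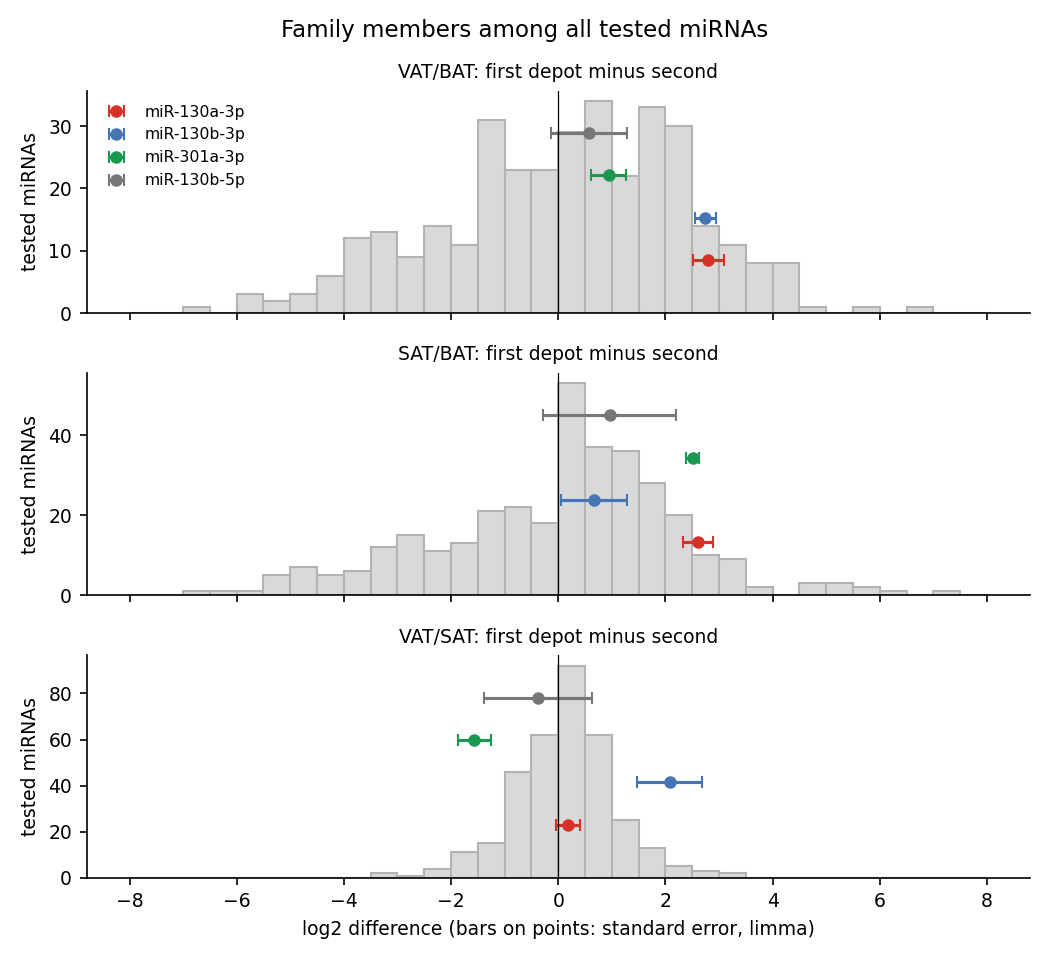
Log2 differences of all 343 tested miRNAs (grey, number per bin) with the 4 tested members (points, SE as bars) in VAT/BAT, SAT/BAT and VAT/SAT, where the height of a point has no meaning. In VAT/SAT the members spread from -1.57 for miR-301a-3p to 2.08 for miR-130b-3p, with miR-130a-3p at 0.19.

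The miRNAs whose seed is the family's seed shifted by 1 base were also described, as their sites overlap in letters with those of the family. They are miR-19a-3p, of the miR-17 to miR-92 cluster, miR-19b-3p, encoded in that cluster on chromosome 14 and also by Mir19b-2 on chromosome X, and miR-148a-3p, miR-148b-3p and miR-152-3p, which share one seed among themselves. The 3 that are compared with the family are shown with bases 2 to 8 in capitals.
miR-19b-3p: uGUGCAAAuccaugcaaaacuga
miR-148a-3p: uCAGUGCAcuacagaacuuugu
miR-152-3p: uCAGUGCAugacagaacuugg
Of the 4 tested (miR-19a-3p was at the lowest value in all 9 libraries), 4 were higher in VAT/BAT, 3 were higher in SAT/BAT and 1 was lower in VAT/SAT. The shares of all 343 tested miRNAs were 39.4% higher in VAT/BAT, 22.4% higher in SAT/BAT and 7.58% lower in VAT/SAT. The VAT/BAT count includes miR-19b-3p, at VAT values that BAT libraries could not show. Neither TTTGCAC, the motif of the miR-19 seed, nor TGCACTG, that of the miR-148 and miR-152 seed, occurred in the Pparg 3′UTR searched, against 1.91% and 2.7% of the 18024 genes.

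MiR-148a-3p, which is known to promote adipogenesis, followed the order of miR-130a-3p at a higher level. It was at 11.94, 11.18 and 11.65 in BAT 12, 15 and 20, at 13.32, 13.69 and 13.63 in SAT 14, 19 and 20, and at 14.02, 13.84 and 13.94 in VAT 14, 17 and 20 on the log2 scale. No BAT library overlapped with a WAT library. Its difference was 2.34 in VAT/BAT (SE 0.27, limma adjusted p = 0.000596) and 1.96 in SAT/BAT (SE 0.24, limma adjusted p = 0.00363). MiR-148b-3p differed by 1.09 in VAT/BAT (SE 0.39, limma adjusted p = 0.0469) and by 1.14 in SAT/BAT (SE 0.41, limma adjusted p = 0.0837).

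Both low miRNAs of this group were at 3.32 in the 3 BAT libraries, as were miR-130b-3p and miR-301a-3p. MiR-19b-3p was at 4.94, 6.01 and 5.71 in SAT 14, 19 and 20 and at 4.16, 3.92 and 3.83 in VAT 14, 17 and 20. It was thus higher in SAT in every library, as was miR-301a-3p, and its VAT/SAT difference was -1.58 (SE 0.31, limma adjusted p = 0.0312). Its VAT values lie below the common detection limit. They also lie below the smallest value of every BAT library (4.25 to 4.91), so BAT could not have shown them. MiR-152-3p was at 5.51, 6.01 and 5.94 in SAT 14, 19 and 20 and at 6.55, 7.001 and 7.65 in VAT 14, 17 and 20. It had the order of miR-130b-3p, higher in VAT with no overlap, and its VAT/SAT difference of 1.25 did not pass the threshold (SE 0.33, limma adjusted p = 0.0646). Against BAT, miR-152-3p was 3.75 above the lowest value in VAT (limma adjusted p = 0.000283) and 2.50 in SAT (limma adjusted p = 0.000403). Both low miRNAs passed the filter only through SAT and VAT, so their p-values against BAT are a description.

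Other known regulators of Pparg were miR-27a-3p, miR-27b-3p, miR-128-3p and miR-20a-5p. MiR-27a-3p and miR-27b-3p, which are known to repress Pparg and adipogenesis, differ by C19U, counted as above with miR-27a-3p first, and share a seed and the Pparg match given above.
miR-27a-3p: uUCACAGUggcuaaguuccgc
miR-27b-3p: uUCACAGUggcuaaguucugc
Of the 4, 2 were higher in VAT/BAT, 2 in SAT/BAT and 2 in VAT/SAT, with none lower. The shares of all 343 tested miRNAs called higher were 39.4%, 22.4% and 8.45%, in the same order. MiR-27a-3p was 1.08 higher in VAT than in BAT (SE 0.31, limma adjusted p = 0.0212) and 1.11 higher in SAT (SE 0.31, limma adjusted p = 0.0467). MiR-27b-3p was the most abundant miRNA of these lists with a match in Pparg, at 13.84, 13.94 and 13.94 in BAT 12, 15 and 20, 14.52, 14.31 and 14.24 in SAT 14, 19 and 20, and 15.30, 15.02 and 15.47 in VAT 14, 17 and 20. The 3 depots did not overlap. It was 1.35 higher in VAT than in BAT (SE 0.22, limma adjusted p = 0.00242), 0.45 higher in SAT than in BAT (SE 0.11, limma adjusted p = 0.0273) and 0.91 higher in VAT than in SAT (SE 0.16, limma adjusted p = 0.0276).

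Among the miRNAs whose motifs were searched, those with a match in Pparg and a value above the lowest in all 9 libraries were miR-130a-3p, miR-27a-3p and miR-27b-3p, and these were each called higher in both WATs than in BAT. Of all 343 tested miRNAs, 39.4% were called higher in VAT/BAT and 22.4% in SAT/BAT. Both miR-27 miRNAs share the same motif. MiR-130b-3p and miR-301a-3p carry the family seed but were at the lowest value in BAT, and miR-130b-3p was not called in SAT/BAT. A link between a match and the depot was not tested. MiR-128-3p differed by -0.60 in VAT/BAT (limma adjusted p = 0.421) and by -0.89 in SAT/BAT (limma adjusted p = 0.354). MiR-20a-5p, of the chromosome 14 cluster that holds one of the miR-19b-3p genes, was above the lowest value in all VAT libraries (4.21 to 4.97), in BAT 15 and in no SAT library. Its VAT/SAT difference was 1.22 (SE 0.21, limma adjusted p = 0.0276), opposite in sign to that of miR-19b-3p, and its VAT values lie below the common detection limit. No match of CACTGTG, the motif of miR-128-3p, or of GCACTTT, that of miR-20a-5p, was found in the Pparg 3′UTR searched (3.27% and 1.9% of the 18024 genes).

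**Figure D5:**
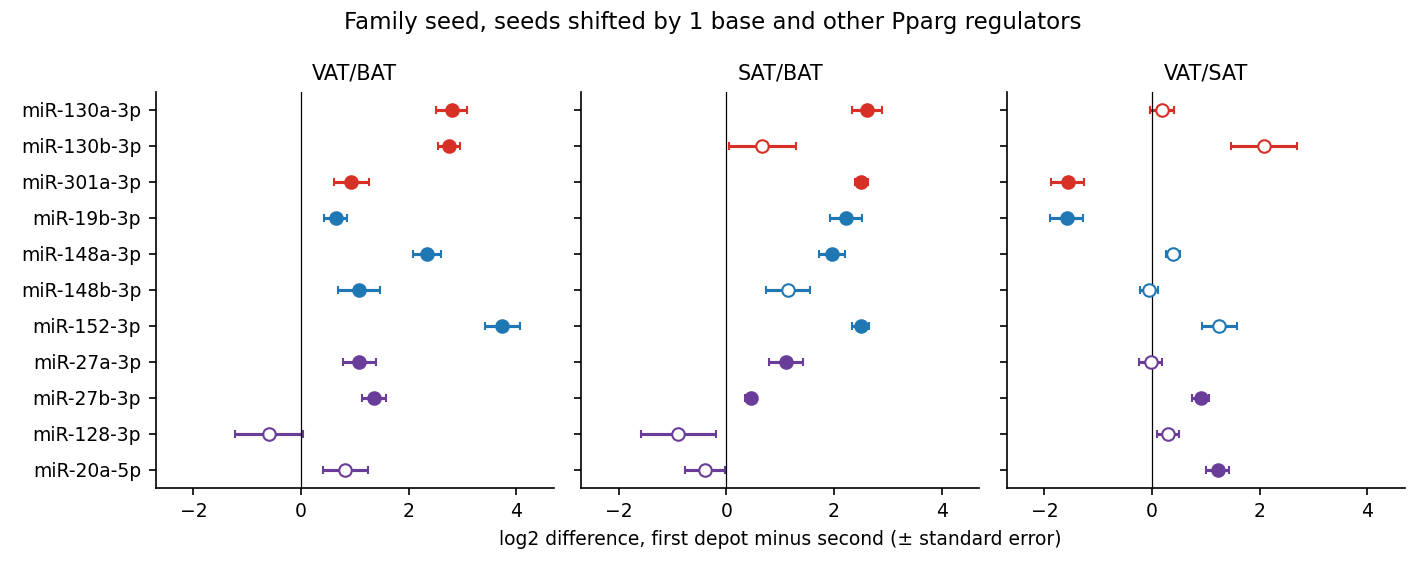
Log2 differences (points, SE as bars) in VAT/BAT, SAT/BAT and VAT/SAT of the family seed (red), the seeds shifted by 1 base (blue) and other known Pparg regulators (purple), with filled points for an adjusted p under 0.05 in limma. In VAT/SAT miR-301a-3p (-1.57) and miR-19b-3p (-1.58) lie left of 0 and miR-130b-3p (2.08) and miR-152-3p (1.25) right of it.

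Of 15 miRNAs known to act in adipocyte differentiation, 8 were higher and 4 lower in VAT/BAT, 7 higher and 3 lower in SAT/BAT, and 3 higher and 3 lower in VAT/SAT. Over all 343 tested miRNAs, 39.4% were called higher and 26.8% lower for VAT/BAT. SAT/BAT gave 22.4% and 18.1%, and VAT/SAT 8.45% and 7.58%. The median log2 difference of the 15 was 1.68 for VAT/BAT and 1.46 for SAT/BAT, beside 0.40 and 0.26 over all tested miRNAs. The values of 1.84 and 1.73 for the tested family members are partly set by the filter. MiR-26a-5p was 2.25 higher in VAT/BAT (SE 0.29, limma adjusted p = 0.000922) and miR-30a-5p 1.68 higher (SE 0.24, limma adjusted p = 0.00138). MiR-30c-5p was 1.09 lower, with a log2 difference of -1.09 (SE 0.20, limma adjusted p = 0.00395).

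The depots were checked against marker miRNAs of fat and of other cells. Beside the counts here and below, 39.4% of all tested miRNAs were higher and 26.8% lower in VAT/BAT. In SAT/BAT the shares were 22.4% and 18.1%, and in VAT/SAT 8.45% and 7.58%. Of 5 brown fat markers 0 were higher and 4 were lower than BAT in VAT, and the same numbers were found in SAT. MiR-193b-3p, for example, averaged 14.38 ± 0.80 in BAT, 10.94 ± 0.30 in SAT and 10.77 ± 0.40 in VAT (SD, n = 3 each). Both white fat markers were higher in VAT/BAT and in SAT/BAT, although miR-196a-5p was at 3.96 in VAT 14 beside 9.57 and 9.16 in VAT 17 and VAT 20.

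Some markers of other cell types were higher in the WATs, as miR-130a-3p was, and others were not. Their part in the level of miR-130a-3p was not tested. Both endothelial markers, miR-126-3p and miR-126-5p, were higher in VAT/BAT and in SAT/BAT, with a log2 summed level of 11.5 to 12.2 in BAT, 13.3 to 13.6 in SAT and 13.5 to 13.6 in VAT. Of 3 markers of fibroblasts and mesenchyme, 2 were higher in VAT/BAT and 2 in SAT/BAT, with a summed level of 11.2 to 11.6 in BAT, 12.77 to 12.96 in SAT and 13.4 to 13.7 in VAT. MiR-214-3p was called in neither. Of 7 leukocyte markers, 6 were tested, of which 5 were higher and 1 lower in VAT/BAT, 1 was higher in SAT/BAT and 2 were higher in VAT/SAT. Their summed level was 14.3 to 14.8 in BAT, 13.7 to 16.8 in SAT and 13.04 to 14.33 in VAT. The marker called lower in VAT/BAT was miR-150-5p (-1.41, SE 0.46, limma adjusted p = 0.0358), the most abundant of the list in every library. MiR-223-3p, a defining myeloid miRNA, was at the lowest value in BAT, at 8.997 to 9.27 in SAT and at 9.85 to 10.38 in VAT, and miR-155-5p was at the lowest value in all 9 libraries. MiR-511-3p and miR-142-3p were also at the lowest value in BAT. Like miR-223-3p they passed the filter only through WAT, so the p-values of these miRNAs against BAT are a description. MiR-142-3p was at 4.02 to 4.97 in VAT, near the smallest values that BAT libraries show (4.25 to 4.91).

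Markers of muscle and epithelium varied within depots. Of 4 skeletal muscle markers 3 were tested and 0 were called in the pairwise comparisons, with summed levels of 10.1 to 18.7 in BAT, 9.85 to 10.8 in SAT and 9.85 to 17.2 in VAT. In WAT/BAT 1 was called, miR-206-3p, with a log2 difference of -3.20 (limma adjusted p = 0.0215). MiR-206-3p was above the lowest value only in BAT 15 (8.17), BAT 20 (8.23) and VAT 20 (3.63). It passed the filter only through these libraries, so the call is a description. The defining muscle miRNA miR-133a-3p was at 10.10 in BAT 12, 17.20 in BAT 15 and 18.67 in BAT 20, where miR-130a-3p was at 9.05, 8.997 and 8.34. The part of muscle in the BAT level was not tested. Without BAT 20 and VAT 20, the libraries with the highest miR-133a-3p of their depots, miR-130a-3p was 2.55 higher in VAT/BAT (limma adjusted p = 0.0067). In SAT/BAT, where only BAT 20 falls out, miR-130a-3p was 2.39 higher (limma adjusted p = 0.00371). BAT 15 was kept in both fits. Of 5 epithelial markers 2 were tested and 0 called, with all at the lowest value in BAT and summed levels of 5.60 to 14.3 in SAT and 4.07 to 10.1 in VAT. Without SAT 14 and VAT 20, where miR-205-5p was highest (14.31 and 10.02), the VAT/BAT and SAT/BAT differences of miR-130a-3p were 2.77 (limma adjusted p = 0.00444) and 2.77 (limma adjusted p = 0.00888). Only VAT 20 falls out of the VAT/BAT fit here, and only SAT 14 out of the SAT/BAT fit. The VAT/SAT difference of miR-301a-3p was -1.63 without SAT 14 and VAT 20 (limma adjusted p = 0.167). This was close to -1.57 with all libraries but not past the threshold. Removing BAT 20 and VAT 20 takes only VAT 20 out of VAT/SAT, which is the fit without VAT 20 given above (-1.69, limma adjusted p = 0.0871).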

How the data were processed

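The authors sequenced small RNA, mapped reads to miRBase precursors, kept mature miRNAs, split multi-mapping reads in proportion, scaled to the usable reads and added a constant (build mm10 in the submitters' notes). The deposited table holds log2 values whose lowest is 10 before log2. The libraries shared their values at the 100 highest ranks to within 0.138, as quantile normalization leaves them, a step that the sources used here do not name. The paper gives the constant as 40 counts, which the lowest value does not match, so how the table was made from the counts is not settled. Differences of low miRNAs depend on the constant and on the smallest value that each library shows.

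Values were used as deposited. The 343 miRNAs that exceeded the lowest value in 3 or more of 9 libraries were fitted with limma 3.58.1 in R 4.3.3 (lmFit, eBayes, two-sided, no block, Benjamini-Hochberg adjustment over the 343, threshold 0.05), pairwise on 6 libraries and for WAT/BAT and F on all 9. The code was tested on simulated data. The study calls its replicates biological, and the mouse behind each library is not given in the sources used here. Named were all members, all miRNAs with the family seed, the lists and the 3 nearest patterns of each member above the lowest value in all 9 libraries. Members and lists were chosen with earlier results of these data known. The table lists miR-126 and miR-142 under names without the letter a. Sequences came from RefSeq (GRCm38.p6) and loci from GENCODE M21 (GRCm38), with Python 3.11.15. Alternatives changed the offset, filter, scaling, variance, libraries and block. The messenger RNA data were not analysed here.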

Additional observations from a re-analysis of the deposited data

How the results depend on the processing

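Low members are limited by the unknown depth of each library and by the smallest value that it shows, which differs between depots. The common detection limit and the removal of the libraries with the highest miR-205-5p or miR-133a-3p were chosen after the values were seen. In a pairwise comparison a removed library of the third depot changes nothing. Several of these removals therefore repeat a fit with 1 library left out, and the counts of alternatives include both. With only the tested miRNAs whose mean was above the median miRNA's, which keeps miR-130a-3p alone of the members, 1 member was called in VAT/BAT, 1 in SAT/BAT, 0 in VAT/SAT and 1 in WAT/BAT. The single VAT/SAT call became 0 with the other offset (lowest value taken off, 1 added), without a filter, relative to miR-191-5p, without moderation, with the order number as a replicate block, and without the libraries with the highest miR-205-5p or miR-133a-3p. It became 2 in the fit of all 9 libraries and with the common detection limit. Leaving out 1 library at a time gave 2 to 3 members called in VAT/BAT, 2 to 2 in SAT/BAT, 0 to 1 in VAT/SAT and 3 to 3 in WAT/BAT. Over all 343 tested miRNAs the same fits called 187 to 236, 112 to 142, 0 to 49 and 191 to 225, in that order. Without SAT 20 the 1 member called in VAT/SAT was miR-130b-3p in place of miR-301a-3p.

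MiR-130b-5p turned its sign in VAT/BAT with the common detection limit (-0.16), in SAT/BAT without SAT 20 (-0.034, with 1.84 the other end of the range with 1 library left out), and in VAT/SAT with the other offset (0.28) and without SAT 20 (0.61, with -1.26 the other end). It passed the VAT/BAT threshold without BAT 12 (1.38, limma adjusted p = 0.0255). The causes were not tested. MiR-130b-3p lost its WAT/BAT call without a filter (limma adjusted p = 0.0783) and without the libraries with the highest miR-133a-3p (0.0541). Relative to miR-191-5p, whose mean differed by 0.17 between SAT and BAT, all differences of SAT shift by that amount.

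Over all miRNAs the calls in VAT/BAT fell from 227 to 128 without a filter, and in SAT/BAT from 139 to 74. In VAT/SAT they went from 55 to 4 without a filter, 2 relative to miR-191-5p, 13 without moderation, 30 in the fit of all 9 libraries, 0 with the order number as a replicate block, 11 and 5 without the libraries with the highest miR-205-5p or miR-133a-3p, and 0 to 49 with 1 library left out. The miRNAs of higher mean alone gave 119 in VAT/BAT and 127, from 220, in WAT/BAT.

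With the title number as a replicate block, VAT/SAT kept 1 member called (within-block correlation 0.0102) and WAT/BAT 3 (0.0379). Deviations of libraries with the same title number correlated at -0.139 to 0.27 over 4 pairs, and those with different numbers at -0.48 to 0.358 over 23 pairs. With so few libraries this cannot show whether a shared number is a shared mouse. The numbers were not taken as pairs in the main fit because no source used here says so. No paired analysis was possible for VAT/BAT and SAT/BAT with the title number because these depots share only number 20. The planned comparison of ratios between members was not run, since 1 member alone was above the lowest value in all 9 libraries.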
